A study of Mus musculus with 8 samples.

Results

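Epcam, Krt79, Dnah11, Cpne5, Trp53i11, Patj, Adam22, Gpr155 and Syne2 were 9 of the 37310 genes in the deposited count table of mouse alveolar macrophages. They were selected on their measured counts in all 4 groups: their transcripts were nearly gone or much reduced after months of culture and stood at like levels in the 3 groups of macrophages taken from lung. The loss and the return are therefore what chose them and are described here without a test. All 8 libraries entered the choice, so none was left to test the same pattern on.

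The study compared alveolar macrophages grown in culture with cells that had lived in a lung. The exAM group held cells of C57BL/6 mice after 2 months of expansion in culture. Expanded cells that had then been placed in the airways of other mice and recovered 4 months later formed the texAM group. The tAM group held transplanted alveolar macrophages of C57BL/6 mice that the labels do not call expanded, also recovered at 4 months. HostAM were alveolar macrophages of C57Bl/6-Ly5.1 mice, the recipient strain, which carries another allele of the surface protein CD45. Donors and recipients were wild type and 8 weeks old at the start. Cells of the 3 lung groups were sorted as live, SiglecF+, CD11c+ and CD45.1+ or CD45.2+, whereas no sort is given for the cultured cells. The labels do not say whether the HostAM mice had received cells or only buffer. Each group had 2 libraries, each from a pool of 3 mice or cultures, so a spread or p-value below refers to pools.

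Alveolar macrophages live on the air side of the lung, where they clear surfactant and inhaled particles. They settle there around birth and renew themselves in place, and much of their gene expression depends on signals of that site, among them GM-CSF and TGF-beta. Cells that leave the site can lose part of this programme. Several of the 9 genes are better known from epithelium. Epcam encodes an adhesion protein that is a standard surface marker of epithelial cells, Krt79 a type II keratin, and Patj a scaffold of the Crumbs polarity complex at tight junctions. Dnah11 encodes a heavy chain of the outer dynein arm that drives cilia. Cpne5 is a copine, a calcium-dependent phospholipid-binding protein, and Adam22 a catalytically inactive ADAM family receptor for LGI proteins. Gpr155 encodes LYCHOS, a lysosomal cholesterol sensor that acts on mTORC1. Syne2 encodes nesprin-2, which ties the nuclear envelope to the cytoskeleton, and Trp53i11 was named as a gene induced by p53.

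Per kilobase of the longest coding transcript, the mean level over the 3 lung groups ran from 8.30 CPM for Dnah11 to 88.2 CPM for Krt79. CPM are counts scaled to a common library size after TMM normalization. Trp53i11 stood at 70.1 CPM per kilobase, Epcam at 69.3, Cpne5 at 48.4, Syne2 at 43.4, Gpr155 at 31.4, Patj at 24.4 and Adam22 at 15.7. The epithelial genes Krt79 and Epcam were thus among the upper 3 of the 9 on this scale. In exAM the order was another one, since Syne2 led with 2.31 CPM per kilobase, followed by Gpr155 with 1.24 and Krt79 with 0.826.

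The genes differed by degree in what was left in culture. Epcam, Dnah11, Patj, Cpne5, Trp53i11 and Krt79 had 21 counts or fewer over both exAM libraries. Krt79 had the most of these and kept 0.937% of its mean lung level. Adam22, Gpr155 and Syne2 kept 3.35%, 3.95% and 5.32% of their mean lung level. In bulk RNA, fewer cells that express a gene and less RNA per cell cannot be told apart, which holds for every level below.

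**Figure D1:**
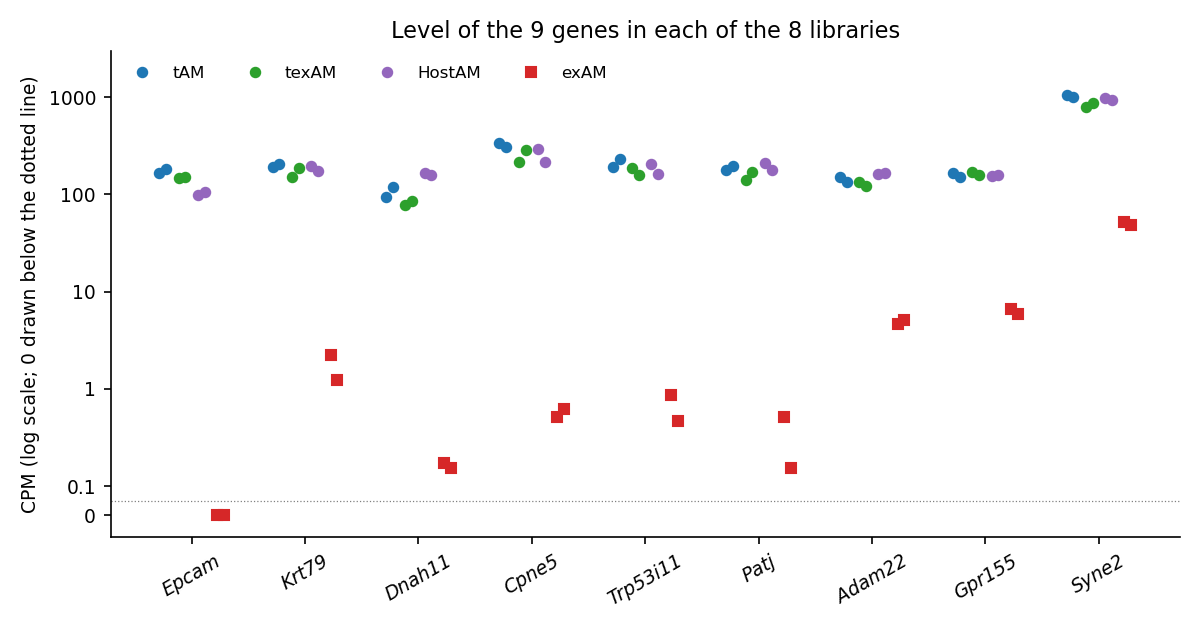
Level of each gene in each library, in CPM on a log axis, with exAM as red squares and the lung groups as circles. A value of 0, as for Epcam in exAM, is drawn below the dotted line, and every lung library lies far above both exAM libraries for all 9 genes.

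The upstream sequences of the genes were read from the RefSeq promoter table (GRCm38.p6), in which all 9 were found. Each was taken as the 250 bases before the most upstream RefSeq start. That start can differ from the end of the gene span given below. The window of Cpne5 lies inside its span, and those of Patj, Gpr155 and Syne2 lie partly inside theirs. The window of Epcam is chr17:87635729-87635978 on the plus strand. The window of Krt79 is chr15:101940325-101940574 and that of Adam22 chr5:8368161-8368410, both on the minus strand. They are shown because each holds the E2-box CAGGTG, or CACCTG on the other strand, and because their letters differ in kind: that of Krt79 is rich in G and C but holds few CpG. Capitals mark the E2-box, and each sequence runs 5′ to 3′ and ends at the base before the start.
Epcam: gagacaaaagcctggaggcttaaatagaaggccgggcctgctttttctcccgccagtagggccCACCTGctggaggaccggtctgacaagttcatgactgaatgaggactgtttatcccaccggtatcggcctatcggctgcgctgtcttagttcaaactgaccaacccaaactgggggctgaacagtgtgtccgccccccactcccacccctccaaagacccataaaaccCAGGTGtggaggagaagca
Krt79: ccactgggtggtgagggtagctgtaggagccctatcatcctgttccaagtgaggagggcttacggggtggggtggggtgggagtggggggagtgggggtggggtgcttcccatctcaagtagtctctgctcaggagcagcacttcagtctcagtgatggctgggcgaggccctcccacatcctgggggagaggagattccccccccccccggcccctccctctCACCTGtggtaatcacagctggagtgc
Adam22: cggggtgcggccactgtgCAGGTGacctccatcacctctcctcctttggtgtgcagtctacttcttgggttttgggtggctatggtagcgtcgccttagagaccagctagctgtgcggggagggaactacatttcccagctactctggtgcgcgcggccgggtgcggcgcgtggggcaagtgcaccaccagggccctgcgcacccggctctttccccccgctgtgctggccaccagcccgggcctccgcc

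The E2-box was in 5 of the 9 windows (Epcam, Krt79, Patj, Adam22 and Syne2) and in 17.1% of the 27025 promoters of the table at the same length. It was singled out of 9 motifs after these shares were known, and a match is a stretch of letters, not a bound site. In Epcam it occurred at positions -187 to -182 and -19 to -14 from the start, in Krt79 at -27 to -22, and in Adam22 at -232 to -227. In Adam22 its last bases overlap a match to the nuclear receptor motif AGGTCA on the other strand. The GC box GGGCGG was in 6 of 9 windows against 33.0% of all promoters. The SMAD motif GTCTG was in 3 of 9 against 42.2%, the PU.1 core GAGGAA in 2 (Dnah11 and Syne2) against 23.1%, and AGGTCA in 2 (Adam22 and Gpr155) against 13.8%. The C/EBP motif TTNCNNAA (37.0% of promoters), the AP-1 motif TGANTCA (6.9%), the E-box CACGTG (6.0%) and TATAAA (3507 promoters) were in none of the 9 windows, with both strands searched throughout. GC content had a median of 70% over the 9 windows against 52% over all promoters, from 46.0% in Dnah11 to 76.4% in Cpne5. The ratio of observed to expected CpG was 0.12 in Krt79, 0.303 in Dnah11, 0.405 in Epcam, 0.61 in Adam22 and 0.884 in Cpne5. GC content and CpG density thus varied widely among the windows.

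Epcam (ENSMUSG00000045394) lies on chromosome 17 at 87635979 to 87651129 on the plus strand of GRCm38 and its longest coding transcript has 10 exons. It was read at 166 and 181 CPM in tAM, 146 and 151 CPM in texAM and 98.4 and 105 CPM in HostAM. Both exAM libraries had 0 counts. The libraries of the 3 lung groups did not overlap, and HostAM was lowest at 58.7% of the tAM mean. Against a floor of 3 counts over the 2 exAM libraries, the lung mean was at least 579.7-fold higher. With 1 exAM library left out, the floor rises and the bound drops to 271-fold. Epcam was the member for which host and donor cells differed most in that direction; strain differed along with origin, and the 2 cannot be told apart.

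Krt79 (ENSMUSG00000061397, chromosome 15 at 101929332 to 101940324, minus strand, 9 exons) sits in the type II keratin cluster. Its levels were 192 and 206 CPM in tAM, 149.8 and 188 CPM in texAM, and 198 and 175 CPM in HostAM. In exAM 13 and 8 counts remained, or 2.23 and 1.24 CPM. The lung mean was 107-fold above exAM, with a 95% counting interval of 70.9 to 175. HostAM overlapped both transplanted groups, so the order of the lung groups was not resolved.

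Patj (ENSMUSG00000061859) spans chromosome 4 from 98395785 to 98719603 on the plus strand with 44 exons. It stood at 177 and 195 CPM in tAM, 141 and 172 CPM in texAM and 209.8 and 179 CPM in HostAM. HostAM overlapped tAM, and texAM was the lowest of the lung groups. The exAM libraries had 3 counts and 1 count. The ratio of 535 has a counting interval of 215 to 2020.0, and it was 344 or 1144 when only 1 of the exAM libraries was used. Its size is thus known only within that range, whereas the libraries on either side of it do not approach each other. A processed pseudogene inside Patj (ENSMUSG00000081046) had 13 to 72 counts in the lung libraries and 0 in exAM.

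Dnah11 (ENSMUSG00000018581) covers chromosome 12 from 117877982 to 118199043 on the minus strand and has 82 exons. Its levels were 94.6 and 118 CPM in tAM, 77.6 and 85.4 CPM in texAM and 168 and 157 CPM in HostAM. Each exAM library had 1 count. HostAM stood at 152% of the tAM mean, above every transplanted library, and texAM at 76.5%, below both tAM libraries. Dnah11 and Epcam thus ranked the lung groups in different orders. The ratio of the lung mean to exAM was 717, with a counting interval of 199 to 5934 because the exAM value rests on 2 counts. Cdca7l overlaps the 3′ end of Dnah11 on the opposite strand. Use of strand in the counting is not given in the sources used here. Cdca7l was at 41.2 CPM in tAM and 46.9 CPM in exAM (adjusted p = 0.4314, edgeR quasi-likelihood test with Benjamini-Hochberg adjustment).

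Cpne5 (ENSMUSG00000024008, chromosome 17 at 29155556 to 29238167, minus strand, 21 exons) was at 338 and 309 CPM in tAM, 216 and 287 CPM in texAM, and 295 and 213 CPM in HostAM. The exAM libraries had 3 and 4 counts, 0.514 and 0.618 CPM. The lung mean was 488-fold higher, with a counting interval of 236 to 1208. Both tAM libraries lay above all libraries of the other lung groups, which overlapped each other widely.

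Trp53i11 (ENSMUSG00000068735, chromosome 2 at 93187548 to 93201759, plus strand, 8 exons) was at 189.8 and 233 CPM in tAM, 187 and 160.0 CPM in texAM, and 207 and 161 CPM in HostAM. In exAM 5 and 3 counts were read. The lung mean was 287-fold above exAM, with a counting interval of 148 to 675. HostAM overlapped both transplanted groups, while texAM lay just under tAM.

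Adam22 (ENSMUSG00000040537) lies on chromosome 5 at 8072352 to 8368160 on the minus strand and has 30 exons. It was measured at 151 and 135 CPM in tAM, 134 and 122 CPM in texAM, and 162 and 167 CPM in HostAM. The exAM libraries had 27 and 33 counts, 4.63 and 5.10 CPM. The lung mean was 29.8-fold higher (counting interval 23.1 to 39.0). HostAM was the highest group and texAM the lowest, without overlap, although the nearest tAM and texAM libraries were almost level.

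Gpr155 (ENSMUSG00000041762, chromosome 2 at 73341506 to 73386572, minus strand, 17 exons) was the most even of the 9. Its lung libraries ran from 150.2 and 165 CPM in tAM through 153 and 157 CPM in HostAM to 158 and 169.8 CPM in texAM, a 1.13-fold range. It was also the member whose texAM mean exceeded the tAM mean, at 104%. In exAM it was at 6.69 and 5.87 CPM (39 and 38 counts), so the lung mean was 25.3-fold higher (20.3 to 32.1). The antisense genes Gm13703 and Gm13709 over it had 0 to 9 counts in each library.

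Syne2 (ENSMUSG00000063450, chromosome 12 at 75818134 to 76110926, plus strand, 115 exons) was the best counted. It had 9136 and 7997 counts in tAM, 7617 and 7634 in texAM, 8915 and 8179 in HostAM, and 300 and 316 in exAM. On the CPM scale these were 1060.4 and 1002.7, then 795 and 871, then 983 and 941, and 51.5 and 48.8. The lung mean was 18.8-fold above exAM, with a counting interval of 17.4 to 20.4. The groups were ordered tAM, HostAM, texAM, exAM with no overlap between any of them.

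All 9 genes were called lower in exAM than in each lung group, as were 17.1% of the 14537 tested genes (2487). The choice of the genes rests on these contrasts, so their share says nothing more. For exAM against tAM alone, 44.7% of tested genes were called in either direction, and 23.2% of tested genes were lower.

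For most of the genes texAM stood somewhat below tAM. The texAM libraries lay below both tAM libraries, without overlap, for 8 of the 9 genes, all but Gpr155. The same was true of 20.2% of all tested genes. No member had its texAM libraries above those of tAM, against 21.9% of tested genes. The texAM mean was 76.5% of the tAM mean for Dnah11, 77.8% for Cpne5, 80.8% for Syne2, 82.2% for Trp53i11, 84.2% for Patj, 84.9% for Krt79, 85.8% for Epcam and 89.2% for Adam22. Likeness of these levels entered the choice of the genes, so the count is a description. With libraries scaled by total counts, 7 of 9 were below, and with DESeq2 size factors 8 of 9. No member was called between texAM and tAM by the edgeR quasi-likelihood test, in which 1 gene (Arap2, 0.00688% of those tested) passed.

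HostAM did not sit on one side of the donor cells. Its libraries lay below those of tAM without overlap for Epcam, Cpne5 and Syne2 (19.1% of tested genes) and above them for Dnah11 and Adam22 (18.7%). Against HostAM, the texAM libraries were lower for Dnah11, Patj, Adam22 and Syne2 (21% of tested genes) and higher for Epcam and Gpr155 (21.8%). With DESeq2 size factors the last number was 1 rather than 2. The edgeR test called 0.33% of genes between texAM and HostAM (0.248% higher and 0.0825% lower in texAM) and 0.0413% between tAM and HostAM (0.0206% in each direction).

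**Figure D2:**
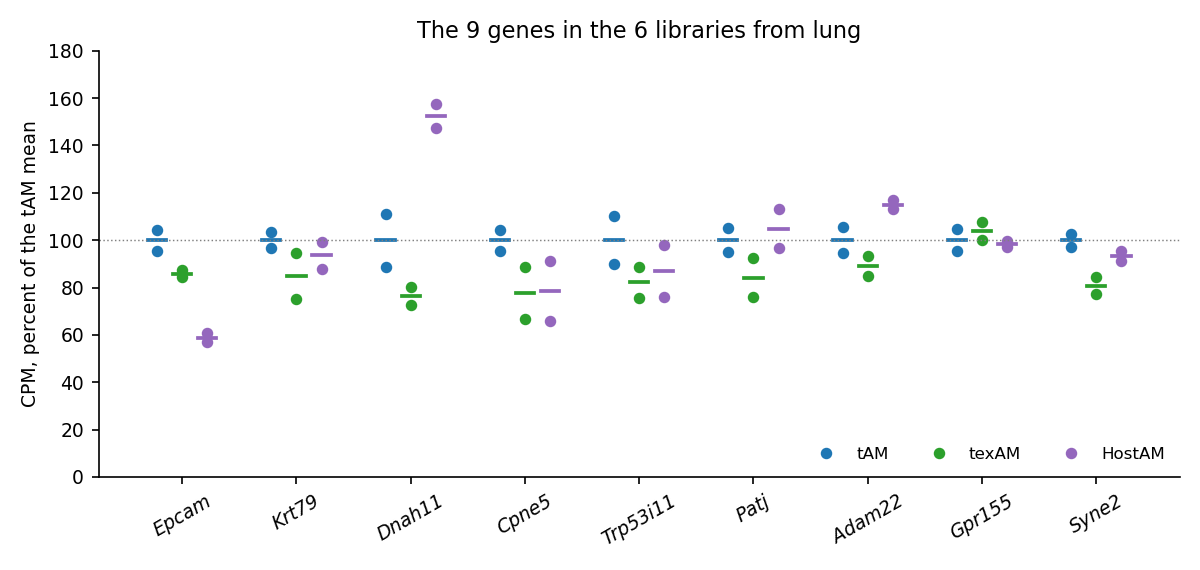
Level of each gene in the 6 lung libraries as a percent of its tAM mean, with points for libraries and bars for group means. The texAM bar lies under 100 for all genes but Gpr155, and the HostAM bar ranges from 58.7% for Epcam to 152% for Dnah11.

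Depth per base of transcript differed among the 9. Lung counts per base of the longest coding transcript were 0.684 to 0.855 for Krt79, 0.438 to 0.707 for Epcam and 0.517 to 0.695 for Trp53i11, but 0.0528 to 0.108 for Dnah11. Over all genes with 0.5 to 1 counts per base, the median log2 ratio of library 1 over library 2 was 0.06 in tAM, 0.09 in texAM and -0.06 in exAM, each nearer to 0 than the ratio of effective library sizes (0.11, 0.13 and -0.15). In HostAM it was 0.09 against 0.06. Above 1 count per base the median was 0.02 in tAM, 0.03 in texAM, 0.03 in HostAM and 0.002 in exAM. Counts of the most densely read genes thus followed library size less closely. The part of this in the folds, evenness and order per kilobase of Krt79, Epcam and Trp53i11 was not tested.

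The combination of loss and evenness was then sought over all genes. Required were a lower call in exAM against each lung group, a fold of at least 8 between the lowest lung mean and exAM, lung means within 1.5-fold of one another, and at least 10 CPM in the lowest lung group. For this fold, exAM means under 0.25 CPM were raised to 0.25 CPM. There were 123 such genes, 0.846% of those tested, and 7 of the 9 members were among them. Epcam, with a ratio of 1.70 between its lung means, and Dnah11, with 1.99, exceeded the limit of 1.5. Without that limit 215 genes qualified. By fold, Patj was at rank 1, Cpne5 at 3, Trp53i11 at 6, Krt79 at 22, Adam22 at 51, Gpr155 at 55 and Syne2 at 74. The 9 genes are therefore a selection from a larger set with this pattern. Adam22, Gpr155 and Syne2, which kept the most in culture, come from its middle.

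The other leading genes of that set with a given symbol were of several kinds. Ppp1r9a encodes neurabin, an actin-binding scaffold. It stood at 138 CPM in tAM, 117 in texAM, 120 in HostAM and 0.163 in exAM. Lsr, the lipolysis-stimulated lipoprotein receptor of tricellular junctions, stood at 125, 109, 115 and 0.395 CPM in the same order. Tlr5, the receptor for flagellin, stood at 110, 86.6, 99.7 and 0.343 CPM. The nuclear receptor gene Nr4a3 stood at 61.4, 84.6, 74.1 and 0.232 CPM, and Tppp3, a tubulin-binding protein, at 129, 128, 145 and 0.549 CPM. Ccr7, a chemokine receptor of dendritic and T cells, was at 47.5, 61.2, 57.6 and 0 CPM. Fgf1, a growth factor, was at 66.9, 54.3, 45.1 and 0.172 CPM, with a lung ratio of 1.48 just inside the limit. Lsr and Tppp3 are, like Epcam, genes known mainly from epithelium.

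**Figure D3:**
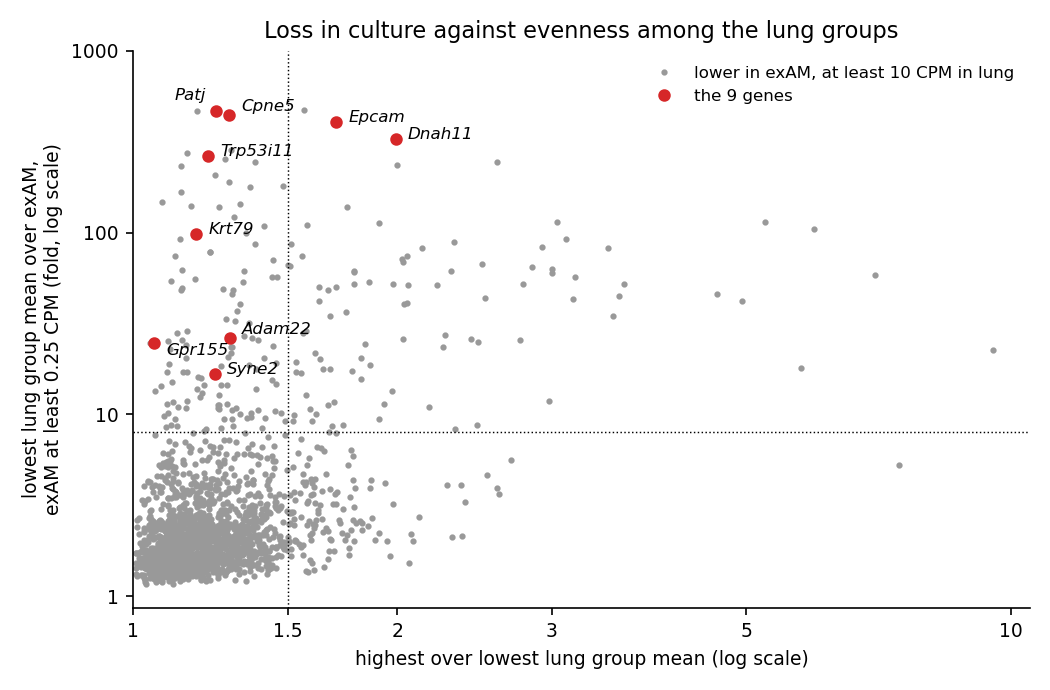
Each point is a gene called lower in exAM against all 3 lung groups, with the ratio of the highest to the lowest lung mean on the x axis and the fold over exAM on the y axis, both on log scales. Dotted lines mark the limits of 1.5 and 8, and Epcam and Dnah11 lie to the right of the first.

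Likeness between genes was measured as the root mean square difference of log2 CPM over the 8 libraries, after each gene was centred on its lung mean. The libraries are shared by all genes and exAM sets most of the measure, so it is a description. Among members the closest pair was Adam22 and Gpr155 (0.21) and the farthest Epcam and Syne2 (2.47). For Gpr155 the nearest gene was Spint1 (0.14), then Akap5 (0.17). Akap5 was also second for Adam22 (0.21). Syne2 was nearest to Acss1 (0.12) and Wfdc10 (0.14), and Krt79 to Apoe (0.23) and Grap2 (0.25). Cpne5 was nearest to Ppp1r9a (0.26) and Patj (0.33), and Patj in turn to Cpne5 (0.33) and Ppp1r9a (0.34). Trp53i11 was nearest to Tlr5 (0.34) and Patj (0.35). Dnah11 (Patj, 0.36, then Trp53i11, 0.44) and Epcam (Cpne5, 0.46, then Ppp1r9a, 0.55) had larger distances to their nearest genes than the other members.

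Genes that work with the 9, or belong to their families, did not follow them as a body. Over 9 lists of such genes, 174 distinct genes were tested. In exAM against tAM 44 were higher and 43 lower, or 25.3% and 24.7% beside 21.5% and 23.2% of all tested genes. The median log2 change was -0.06 over these genes and -0.09 over all tested genes. Without exAM replicate 2, 28 were lower. In texAM against exAM 53 were higher and 48 lower, or 30.5% and 27.6%, where 23.2% and 20.5% of all genes were called. The 53 dropped to 28 without exAM replicate 1, to 32 without exAM replicate 2, to 35 without texAM replicate 1 and to 32 without texAM replicate 2. Cdh1, Mpp5, Npc1, Sun1, Sun2, Dnah6, Krt7, Krt8 and Krt18 are named for what they encode and were chosen after their values were seen. The adjusted p-values in the paragraphs on these lists come from the edgeR quasi-likelihood test with Benjamini-Hochberg adjustment over all tested genes.

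Around Epcam, 25 adhesion genes, partners and proteases were tested, of which 7 rose and 8 fell in exAM against tAM (median log2 change 0.12). Spint1, the Kunitz inhibitor HAI-1 that restrains matriptase, fell from 110 ± 0.724 CPM (SD, n = 2) in tAM to 4.32 ± 0.436 CPM (log2 change -4.67, SE 0.21, adjusted p = 1.951e-07). It was at 121 ± 11.5 CPM in texAM. Its relative Spint2 (HAI-2) fell from 6.97 ± 0.813 to 0.660 ± 0.279 CPM (adjusted p = 0.00059). St14, which encodes matriptase itself, rose from 2.19 ± 0.802 to 42.3 ± 6.93 CPM (adjusted p = 0.0001311) and was at 1.90 CPM in texAM. The protease and its inhibitors thus moved in opposite directions. Adam10, a sheddase, rose from 213 to 482 CPM (adjusted p = 4.737e-06). Cdh1, E-cadherin, was at 235 CPM in tAM and 399 CPM in exAM.

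Among keratins, 10 were tested beside Krt79, and 5 fell and none rose in exAM against tAM (median log2 change -4.11). In texAM against exAM 7 rose. Krt80 fell from 30.8 ± 1.17 to 1.36 ± 1.48 CPM (log2 change -4.53, adjusted p = 0.000124) and was at 28.2 CPM in texAM. Krt19 fell from 268 ± 18.8 to 93.9 ± 39.2 CPM (log2 change -1.51, adjusted p = 0.0003801) and was at 228 CPM in texAM. The other keratins that fell, Krt7, Krt8 and Krt18, did not reach 2 CPM in tAM. They had 0 counts in exAM, as had Krt4 and Krt15, which were not called. The fitted changes of these genes had SE from 1.66 (Krt8) to 2.89 (Krt4), so the median of the list is uncertain. Per kilobase, Krt19 stood at 156 CPM over the lung groups, above the 88.2 CPM of Krt79, and Krt8 at 0.828 CPM.

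Of 18 axonemal dyneins and assembly factors tested, 3 fell and 2 rose in exAM against tAM (median log2 change -0.88). Against exAM, 8 were higher and 2 lower in texAM. No other axonemal heavy chain came near Dnah11 per kilobase: the highest, Dnah6, had a lung mean of 0.674 CPM against 8.30. Dnah8 was at 6.91 ± 3.70 CPM in tAM, 12.3 ± 6.94 CPM in texAM, 1.11 CPM in HostAM and 0 in both cultured libraries, at least 28.4-fold below tAM. Dnah17 fell from 9.46 CPM in tAM to 2.21 CPM in exAM (adjusted p = 0.02569). It was at 13.3 CPM in texAM but at 1.47 CPM in HostAM, no higher than in exAM. The intermediate chain gene Dnaic1 rose from 0.599 to 5.65 CPM (adjusted p = 0.01508), and the assembly factor gene Dnaaf5 from 44.3 to 77.1 CPM (adjusted p = 0.01283).

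None of the 5 other copines tested was called lower. Cpne9 was at 5.85 ± 4.67 CPM in tAM and 1.49 ± 0.800 CPM in exAM (log2 change -1.97, adjusted p = 0.0774). Cpne3 rose from 366 ± 27.2 to 524 ± 22.1 CPM (log2 change 0.52, adjusted p = 0.003915). The family was thus present in culture while Cpne5 was nearly absent: Cpne3 stood at 92.8 CPM per kilobase in exAM, where Cpne5 had 0.0992.

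Of 30 genes of the p53 pathway, 11 rose and 5 fell in exAM against tAM (median log2 change 0.53), and 14 were lower in texAM than in exAM. Plk2, a kinase, rose from 10.7 to 209 CPM (adjusted p = 5.872e-05) and Pmaip1, which encodes the death protein NOXA, from 9.42 to 53.2 CPM (adjusted p = 6.98e-05). Btg2, a growth inhibitor, fell from 172 to 30.8 CPM (adjusted p = 3.271e-07) and Trp53i13 from 5.43 to 1.39 CPM (adjusted p = 0.03327). Most of the called targets thus went up while Trp53i11 went down.

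Of 23 polarity and tight junction genes around PATJ, 9 rose and 4 fell (median log2 change 0.10). Amotl1, an angiomotin, rose from 9.16 to 167 CPM (adjusted p = 2.37e-05) and Pard3 from 0.290 to 5.68 ± 6.28 CPM (adjusted p = 0.03221). Ocln, occludin, fell from 31.3 to 13.6 CPM (adjusted p = 0.007206) and Llgl2 from 15.001 to 5.15 CPM (adjusted p = 0.0245). Mpp5, which encodes PALS1, the partner that PATJ binds in the Crumbs complex, rose from 52.9 to 183 CPM (adjusted p = 0.0003618).

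Of 15 ADAM family and LGI genes, 6 rose and 6 fell (median log2 change 0.16). Adam19 fell from 54.7 ± 26.9 to 0.489 CPM (log2 change -6.76, adjusted p = 3.128e-05) and was at 140 ± 26.2 CPM in texAM. Adam23, like Adam22 a receptor for LGI proteins without protease activity, had 12.1 CPM in tAM but no count in either cultured library, at least 49.6-fold less (adjusted p = 0.001101). Adam8 rose from 20.9 to 186 CPM (adjusted p = 5.212e-05). The ligand gene Lgi3 was at 0 in tAM and 7.73 CPM in exAM.

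Of 32 genes of lysosomal cholesterol sensing and mTORC1, 9 rose and 5 fell (median log2 change 0.20), and 12 were lower in texAM than in exAM. The Rag GTPase gene Rragd rose from 2.64 to 57.8 CPM (adjusted p = 2.37e-05) and Fnip2, a folliculin partner, from 264 to 757 CPM (adjusted p = 1.181e-06). The KICSTOR subunit genes Kptn and Itfg2 fell, from 12.9 to 3.27 CPM (adjusted p = 0.01526) and from 18.9 to 7.58 CPM (adjusted p = 0.02022). Npc1, the lysosomal cholesterol transporter, rose from 613 to 925 CPM (adjusted p = 0.000107).

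Of 18 LINC complex, lamin and inner membrane genes around Syne2, 1 rose and 7 fell (median log2 change -0.08). Lmna, which encodes the A-type lamins, fell from 321 to 141 CPM (adjusted p = 7.792e-05) and was at 286 CPM in texAM. Lbr, the lamin B receptor, fell from 10.6 to 4.00 CPM (adjusted p = 0.01122) and Tmem43 rose from 107 to 172 CPM (adjusted p = 0.001559). Sun1 and Sun2, the partners of nesprins across the nuclear envelope, were at 51.8 and 137 CPM in tAM and 53.2 and 136 CPM in exAM (adjusted p = 0.8721 and 0.9213).

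**Figure D4:**
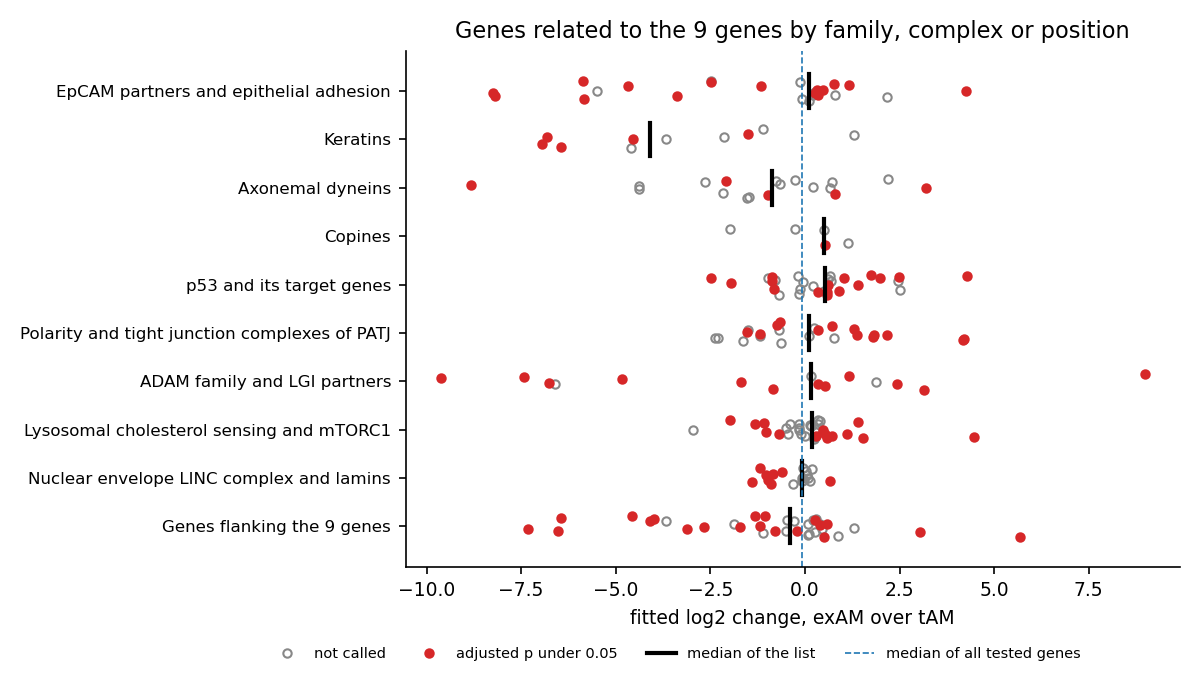
Fitted log2 change of exAM over tAM for every tested gene of each list and for the genes flanking the 9, with red for calls at an adjusted p under 0.05. Black bars are list medians and the dashed line is the median of all tested genes, and the keratin median of -4.11 lies farthest from it. Several keratins had few counts, and Krt4, Krt7, Krt8, Krt15 and Krt18 had 0 in exAM.

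The genes are spread over 6 chromosomes. Dnah11, Patj, Adam22 and Syne2 each span more than 100 kb, as did 11.5% of the 14012 tested genes with a position. Over the top quintile of genes by span, to which 5 members belong, the median log2 change of exAM over tAM was 0.16 and 20.9% were lower, beside 23.2% of all tested genes. Of 36 flanking genes, the 2 nearest tested on each side, 14 were lower in exAM than in tAM (38.9% beside 23.2% of all tested genes) and 6 higher. Without exAM replicate 2, 8 were lower. Next to Cpne5, 6.58 kb away, Rab44, a large Rab GTPase, fell from 163 ± 3.16 to 10.2 ± 0.160 CPM (adjusted p = 1.334e-07) and was at 130 ± 16.8 CPM in texAM. Akap5, a kinase anchor protein gene 214 kb from Syne2, fell from 105 ± 4.29 to 4.37 ± 0.595 CPM (adjusted p = 8.623e-08) and was at 121 CPM in texAM. Nfia, 277 kb from Patj, fell from 221 to 67.5 CPM (adjusted p = 1.791e-05). Prdm11, 141 kb from Trp53i11, fell from 13.5 to 1.56 CPM (adjusted p = 0.000233). The others that fell included Ttc7 (254 kb) and Msh6 (324 kb) beside Epcam and Krt8 (56.4 kb) beside Krt79. Beside Dnah11 they were Sp4 (35.9 kb) and Itgb8 (959 kb), and beside Trp53i11 Gm13807 (202 kb) and ENSMUSG00000085261 (658 kb). Steap4 (90.1 kb) beside Adam22 and Wipf1 (43.0 kb) beside Gpr155 fell too. Some of these changes were small or at low levels. Wipf1 went from 331 to 284 CPM (adjusted p = 0.04759), and Steap4, Itgb8 and Krt8 were at 2.44, 1.41 and 1.33 CPM in tAM. Gm13807 and ENSMUSG00000085261 were at 0.623 and 0.456 CPM in HostAM, beside 0.480 and 0.386 CPM in exAM. Only tested genes counted as flanking, so some lay far off. All flanking adjusted p-values are from edgeR's quasi-likelihood test with Benjamini-Hochberg adjustment.

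Several markers of airway cells moved with the 9 genes. The summed level of 34 alveolar macrophage markers was 10005 to 11505 CPM in lung libraries and 13628 to 15590 CPM in exAM, with no gene at 0. In exAM against tAM, 18 were called higher and 5 lower (52.9% and 14.7% beside 21.5% and 23.2% of all tested genes). Cidec (273 CPM in tAM, 4.57 in exAM) and Fabp1 (98.4 and 5.89) were in the set with the pattern above. Cd68 had 2261 and 2243 counts in tAM and 2267 and 2285 in the smaller exAM libraries, so its CPM was higher there. The part of such level counts in the sums was not tested. A list of 12 markers of secretory airway cells summed to 298 to 415 CPM in tAM, 309 to 541 CPM in texAM and 721 to 1071 CPM in HostAM. In exAM the list summed to 4.63 to 6.86 CPM, with 9 of the 12 at 0, against 2 in each lung group. Bpifa1 led it with 125, 118, 184 and 0 CPM in tAM, texAM, HostAM and exAM, and Cyp2f2 followed with 61.3, 83.4, 159 and 0 CPM. The 25 markers of ciliated cells summed to 154 to 205, 191 to 271, 194 to 211 and 11.6 to 12.7 CPM. Of these 14 were at 0 in exAM, against 1 in tAM, 2 in texAM and 0 in HostAM. Tppp3, itself a gene with the pattern above, gave more of the lung sums than any other gene, with 129, 128, 145 and 0.549 CPM. The ciliary regulator gene Foxj1 was at 4.37, 10.2, 3.43 and 0.086 CPM. Of 19 alveolar epithelial markers tested, 12 were called lower and 4 higher in exAM than in tAM. Krt19 led the list with 268, 228, 243 and 93.9 CPM in the same order of groups, and Abca3 followed with 136, 144, 164 and 173 CPM. Sftpc, the surfactant protein gene of type II cells, was at 13.6, 15.01, 13.8 and 0 CPM. The whole list of 20, some of which macrophages also express, ran from 541 to 618 CPM in lung and 462 to 518 CPM in exAM, with 10 at 0. The part of airway or alveolar epithelial RNA in the levels of the 9 genes was not tested.

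Within the lung, Epcam was lowest in HostAM, where the secretory sum was highest in both libraries. Dnah11 was highest in HostAM, as was the secretory sum, while the ciliated sum there overlapped that of the transplanted groups. Per kilobase, lung means of the ciliated markers ran from 0.0324 CPM for Mcidas to 96.0 CPM for Tppp3. Between these, Dnah9 had 0.112, Dnah5 0.182, Foxj1 2.29 and Cfap126 12.9 CPM, and Dnah11 had 8.30 CPM. Among keratins of simple epithelia, Krt8 had 0.828, Krt18 2.55 and Krt19 156 CPM per kilobase, and Krt79 had 88.2.

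**Figure D5:**
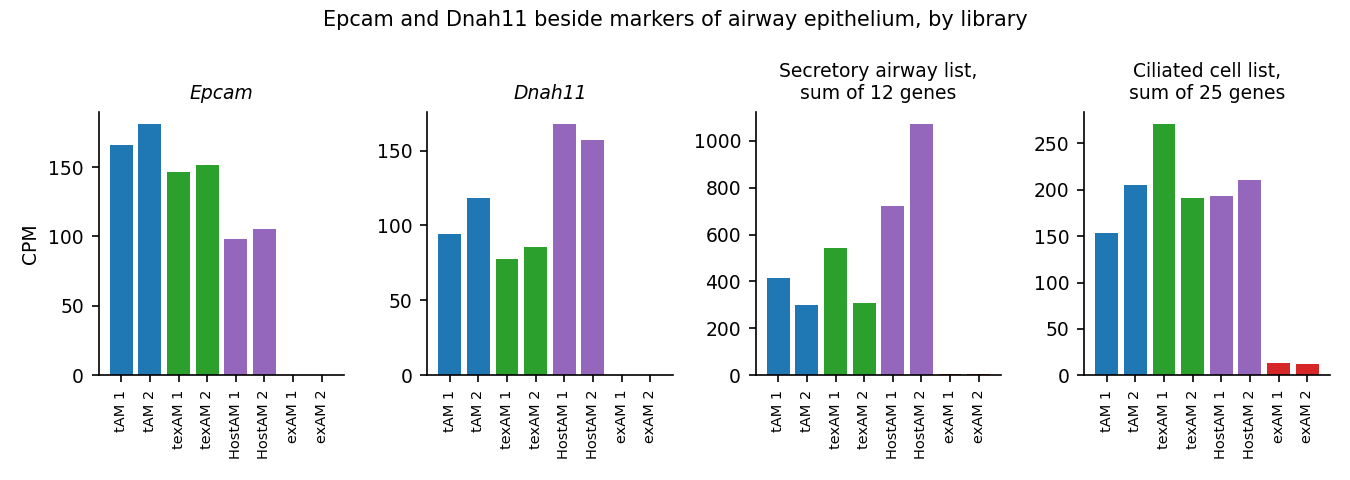
Bars give the level of Epcam, of Dnah11 and of the summed secretory and ciliated marker lists in each of the 8 libraries, in CPM on linear axes that start at 0. The HostAM libraries are low for Epcam and high for Dnah11 and the secretory sum, and exAM is at or near 0 in all panels.

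Sums of some of the remaining marker lists differed between culture and lung, while others in exAM lay within the lung range. Markers of T and B cells (18 genes) summed to 266 to 583 CPM in lung and 373 to 420 CPM in exAM, but 344 CPM of the latter was Il7r. In exAM 10 of the 18 were at 0, against 3 in tAM and 0 in texAM and HostAM. Of 13 tested, 9 were called lower and 1 higher in exAM than in tAM. The T cell receptor component gene Cd3e stood at 41.8, 71.4, 20.5 and 0 CPM in tAM, texAM, HostAM and exAM, and the part of lymphocyte RNA in the levels of the 9 genes was not tested. Markers of dendritic cells (12) summed to 262 to 402 and 205 to 211 CPM, and of endothelium and stroma (13) to 248 to 335 and 271 to 290. Vwf gave 213 CPM of this last sum. Of 7 endothelial and stromal markers tested, 4 were called higher and 0 lower in exAM than in tAM. Among them, Cdh5 was at 23.2 CPM in exAM and 0 in the lung groups. Markers of red cells and platelets (9) summed to 87.0 to 201 CPM in lung and 0.154 to 2.06 CPM in exAM. Transcripts of Y-linked genes (Ddx3y 55 and 59 counts) were read in exAM, whereas Ddx3y had 0 counts in all lung libraries, so the cultured pools held RNA of male mice that the lung pools did not. Total counts ran from 6546272 (exAM replicate 1) to 9154128 (texAM replicate 1). The first principal component held 66.8% of the variance and set exAM apart from the other libraries. The texAM pools, also of expanded cells, were among those without Ddx3y, so they differed from the exAM pools in the sex of the donors. Culture, the lack of a stated sort and the sex of the mice set exAM apart together. For the loss of the 9 genes, and for their return in texAM, these cannot be told apart.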

How the data were processed

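RNA of 8 pools was measured by bulk RNA sequencing. The deposited values are counts, whole-number reads per gene for 37310 Ensembl IDs, and 22497 genes had a count. Per the labels' protocols, cDNA was amplified from 2 ng of RNA by single-primer isothermal amplification. Per the submitters' processing notes, Bowtie, HTSeq 0.6.1 and R 3.3 were used with mm10 (GRCm38), and further settings are not given in the sources used here. The texAM columns carry an abbreviated group name and were matched by it and their number.

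Counts were analysed with edgeR 4.0.16 in R 4.3.3: filterByExpr (minimum 10 counts, 14537 genes tested), TMM scaling, and a robust quasi-likelihood fit to all 8 libraries with 1 coefficient per group and 4 residual degrees of freedom, checked on simulated data. A gene was called where its p-value, adjusted by Benjamini-Hochberg over the tested genes, was under 0.05. CPM are over the effective library size, given as mean ± SD of 2 libraries. A group at 0 counts was given a floor of 3 counts over its libraries. Counting intervals are 95% Poisson limits of the exAM count. Intervals and floors cover counting error only. Positions, exons and transcript lengths are from GENCODE M21 (GRCm38), which held 87.4% of the IDs.

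The 9 genes, the lists of related genes and the marker lists were chosen with earlier results of these data known. Named were the 9 genes, the 2 nearest genes in likeness to each, the 10 genes with a given symbol and the largest fold among those with the same pattern, and flanking genes that overlapped a member or were called lower. A flanking gene that met this rule is not reported here. From each list of related genes the 2 largest called changes per direction were named, at 5 CPM or more and without overlap, and from marker lists the leading genes by lung level. Foxj1, Sftpc, Dnah5, Dnah9, Mcidas, Il7r and Cdh5 were added afterwards. Alternatives were another filter, scaling by DESeq2 1.42.0 size factors or totals, the DESeq2 Wald test, a replicate block, only the libraries compared, and leaving out each library.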

Additional observations from a re-analysis of the deposited data

How the results depend on the processing

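The lung mean of each of the 9 genes was above exAM under all 90 combinations of gene and alternative. In 14 of these the fold moved by more than the spread between replicates, and none reversed. The range was 271 to 666-fold for Epcam, 82.0 to 148 for Krt79, 673 to 820.3 for Dnah11, 442 to 559.9 for Cpne5, 218 to 404 for Trp53i11, 344 to 1144 for Patj, 28.1 to 34.2 for Adam22, 23.4 to 29.1 for Gpr155 and 18.1 to 21.6 for Syne2. Of the genes with the pattern, 7 were members under every alternative but one: without HostAM replicate 1, 6 were.

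Counts of genes called between lung groups depended on the processing. With no filter on low counts, 238 genes were called for texAM against tAM, 694 for texAM against HostAM and 425 for tAM against HostAM, where 1, 48 and 6 were reported. The DESeq2 Wald test gave 73, 385 and 190. With a minimum of 50 counts, 106 were called for texAM against HostAM and 44 for tAM against HostAM. Using only the 4 libraries compared, 2 were called for texAM against tAM. With the replicate number as a block, 0 and 29 were called for texAM against tAM and against HostAM, and no other count moved by over 1.5 times. The numbers did not pair the samples: deviations of same-numbered libraries correlated at -0.061 to 0.009. The cause of these changes was not tested.

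Leaving out 1 library gave 0 to 5 calls for texAM against tAM, 1 to 90 for texAM against HostAM and 0 to 26 for tAM against HostAM. It gave 4698 to 6881 for exAM against tAM, 4591 to 6169 for exAM against HostAM and 4471 to 6796 for texAM against exAM. Lower related genes in exAM numbered 28 to 45, higher ones in texAM against exAM 28 to 59, lower flanking genes 8 to 13, and genes with the pattern 111 to 139. A group left with 1 library is assumed to vary like the others. Scaling by totals shifted the median log2 change of exAM over tAM by -0.20 and the share of calls that were higher from 48% to 34.5%. For texAM over exAM the shift was 0.22, and the share went from 53.1% to 68.1%. Counts of 0 to 5 in each exAM library limit the folds of Epcam, Dnah11, Cpne5, Trp53i11 and Patj.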
